A study of Mus musculus with 12 samples.

Results

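Initiation at gene promoters was compared between pachynema and diplonema, consecutive substages of meiotic prophase I, in mouse spermatocytes. Each autosomal protein-coding gene of the GENCODE M21 annotation was given the highest dREG score among the peaks whose edge was under 1000 bp from any of its transcription start sites (TSSs). A gene without such a peak had no call. Of 20807 genes, 12884 were called in pachynema, diplonema or both, and these are the genes described. The scores were then turned into percentile ranks within each substage, with 100 for the highest-scoring gene, and genes were followed by their change in rank and by gained or lost calls. The signal came from length-extension chromatin run-on sequencing (leChRO-seq), which labels RNA on chromatin while the polymerases that made it are still engaged. dREG is a machine-learning tool that recognises the pattern of run-on reads at sites of initiation and gives each called peak a score.

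The spermatocytes came from the testes of untreated adult wild-type (WT) mice. The strains in use were C57Bl/6J and DBA/2J, and which of them gave each library is not stated in the labels. Leptonema/zygonema, pachynema and diplonema cells were enriched by STAPUT, in which testis cells settle under gravity. The fractions were not pure, and germ cells of other stages may be among them. The study names elongated spermatids as the main contaminant of the fractions. There were 4 libraries for each of the 3 substages, 12 in all. The libraries of a substage were pooled before peaks were called, so no rank has a replicate spread and no difference between substages was tested. The lists hold scores and no read counts, and scores are not scaled between substages. The study gives factors for each library that combine its size with the run-on activity of the substage, but the depth behind the lists was not derived from them here.

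In pachynema the homologous chromosomes are fully synapsed, crossovers mature and the sex chromosomes are silenced, while many genes that serve the later spermatid are already transcribed. In diplonema the synaptonemal complex comes apart and the cell prepares for the first meiotic division. A promoter with a high dREG score carries a clear run-on signature of initiation, on both strands at many mammalian promoters, but the score is not a measure of how much RNA a gene makes.

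Calls were set beside lists of genes that mark cell types, which does not measure the purity of the fractions. The list for the synaptonemal complex and the chromosome axis holds 11 autosomal genes. Of these, 10 were called in both substages, against 10742 of 20807 over all genes. In leptonema/zygonema 10 were called as well, so these calls do not tell the substages apart. Lists of other germ cell stages were also called. In pachynema 25 of 33 genes of spermatogonia and meiotic entry had a call, and 24 of 26 spermatid chromatin genes, against 12734 of 20807 over all genes. In diplonema the numbers were 17 and 21, against 10892 over all genes. Of 54 genes that mark somatic testis cells (Sertoli, Leydig, peritubular, endothelial and blood cells), 33 had no call in either substage (against 7923 of 20807 over all genes), among them Amh of immature Sertoli cells, Star, Insl3, Cyp17a1 and Hsd3b1 of Leydig cells, Ptprc of leukocytes, Pecam1 of endothelium and Acta2 of smooth muscle. Another 21 were called in pachynema, of which 19 ranked in the lowest 25 points. Of the 21, 9 had no call in diplonema, where 15.6% of calls were lost over all genes and 51.6% in the lowest 25 points. Gata4, a transcription factor of Sertoli and Leydig cells, was the highest, with 0.946 in pachynema (rank 41.0) and a call in all 3 substages. Its diplonema score was 0.482, at a rank of 16.2, which is a fall as defined below. Clu was kept with 0.648 in pachynema, and Cldn11 scored 0.695 there and was lost. Of the 12 kept, 10 had a relative rank change, defined below, above 0, with a median of 6.15 points (3.11 with ranks among genes called in both), and the part of somatic cells in other results was not tested. The called members of this list had a median rank of 7.33 in pachynema and, for the smaller number called there, 16.7 in diplonema.

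Most promoters were called in both substages, and the pachynema list was the longer. A call was found for 12734 genes in pachynema (61.2%) and for 10892 in diplonema (52.3%). The pachynema list held 68352 peaks over the whole genome and the diplonema list 38603. Of the pachynema calls, 10742 (84.4%) were kept in diplonema. A diplonema call was missing for the other 1992, or 15.6% of the pachynema calls. Conversely, 150 genes were called in diplonema only, 1.86% of the 8073 genes without a pachynema call.

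The loss of calls followed the pachynema rank closely. Among genes in the lowest 25 points of the pachynema ranks, 1642 of 3184 (51.6%) had no diplonema call. The share was 9.07% between 25 and 50 points and 1.78% between 50 and 75 points. In the highest 25 points it was 0.158%, or 5 of 3173 genes. Lost calls were therefore mostly weak calls of pachynema, with a median score of 0.505 against 1.09 for the kept genes. Their best peaks had a median width of 450 bp, against 640 bp for kept genes, and covered a TSS in 69.2% of cases against 83.6%. When the pachynema list was shortened to as many of its highest-scoring peaks as the diplonema list holds, 948 calls (8.46%) were lost and 640 gained, so both counts move with the lengths of the lists. With these lists of equal length the share lost in the lowest 25 points was 27.3% instead of 51.6%. A difference in depth between the pooled lists cannot be told apart from a difference between the substages here.

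**Figure D1:**
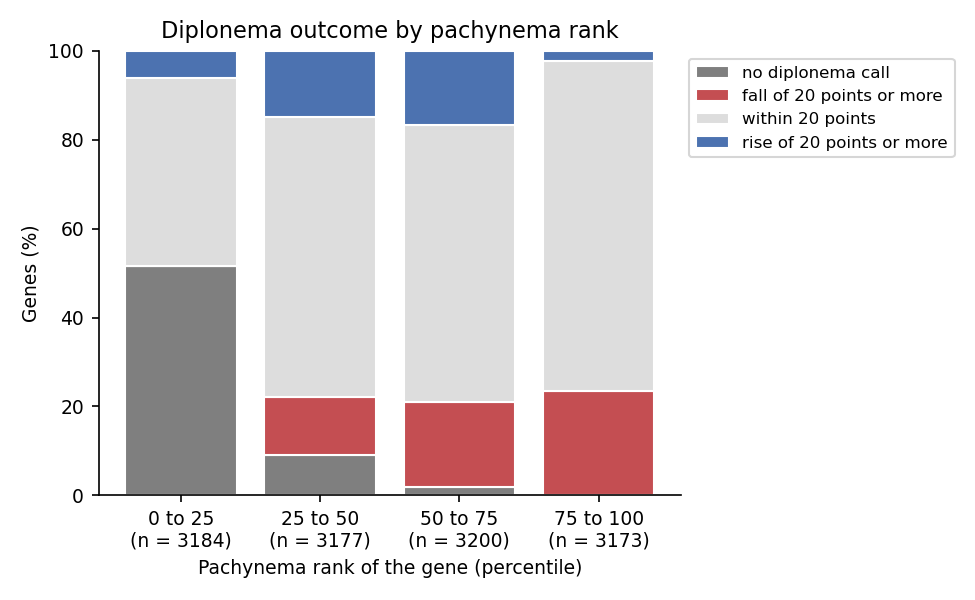
Outcome in diplonema of the genes called in pachynema, in percent of genes (vertical axis), for 4 bands of pachynema rank (horizontal axis). The colours give genes without a diplonema call, genes that fell or rose by 20 points or more relative to the median change, and genes within 20 points. The share without a call drops from 51.6% in the lowest band to 0.158% in the highest.

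Among the 10742 genes kept, the order of promoters was similar but far from fixed. Over these genes the Spearman rho between the pachynema and diplonema scores was 0.745, a description across genes, many of which share peaks. The best peaks of the 2 lists overlapped for 9535 genes (88.8%), and a rank change of the others compares different peaks. Among genes named below these are Kcnmb4, Mtfp1, Prdm15, Ppard, Clasp1, Atf1, Chek1, Creb1, Crebbp, Dnmt3a, Ewsr1, Fbxo5, Jund, Kdm5b, Kit, Mybl1, Nelfb, Pds5b, Rec114, Rfx2, Rfx4, Rnf8 and Terb1. Since the genes lost were mostly low in pachynema, kept genes had a median rank change of -4.32 points, and changes are given below relative to that shift. The middle of the distribution was narrow, with the lower and upper quartiles of the relative change at -13.5 and 11.1 points. A gene is said to have fallen or risen where its relative change was 20 points or more. By this measure 1767 genes fell, 16.4% of those kept, and 1275 rose, or 11.9%. Both words refer to rank, since scores were mostly lower in diplonema. The deposited score was higher there for 1104 kept genes (10.3%), including 821 of the 1275 that rose, and the median difference was -0.191. Some genes share a best peak with a neighbour, and the falls came from 1602 and the rises from 1125 distinct pairs of peaks.

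Ranks are bounded, which limits falls in the lowest 25 points of pachynema and rises in the highest 25. How far this sets the other counts was not tested. Falls made up 23.4% of kept genes in the highest 25 points of pachynema and 0.0649% in the lowest. Rises made up 2.30% in the highest 25 points, but 17.1% between 50 and 75, 16.3% between 25 and 50 and 12.5% in the lowest. The choice of the highest peak per gene matters for these classes. When the scores of all peaks in reach were summed instead, 673 of the 1767 falls and 326 of the 1275 rises were shared with the main count, and when peaks were ranked among all autosomal peaks only 294 genes rose.

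**Figure D2:**
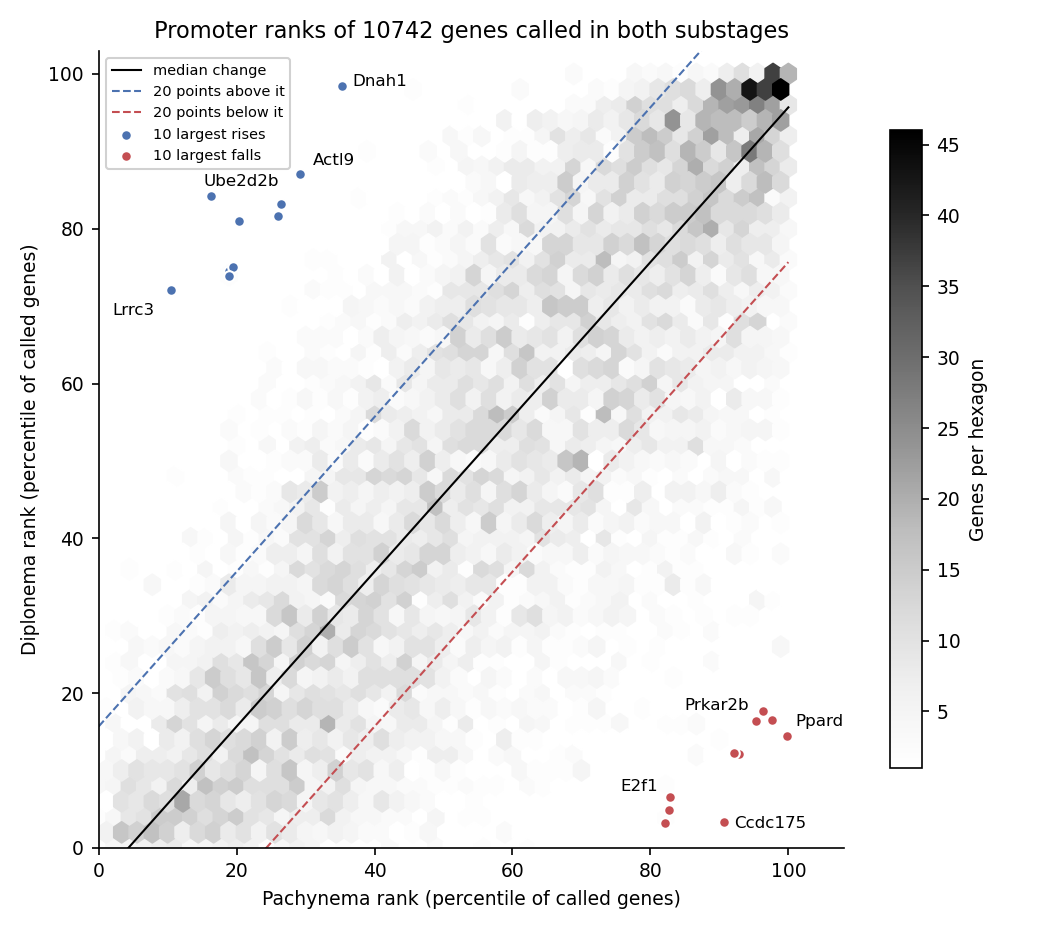
Diplonema rank (vertical axis) against pachynema rank (horizontal axis), both in percentiles of the called genes, for the 10742 genes called in both substages. Hexagons are shaded by the number of genes, the solid line marks the median change of -4.32 points, dashed lines lie 20 points above and below it, and the 10 largest rises and falls are drawn as points. Ube2d2b, Dnah1 and Lrrc3 stand far above the band and Ccdc175, Ppard and E2f1 far below it.

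The 5 highest-scoring genes of pachynema stayed high, although 23.4% of kept genes in the highest 25 points fell. They were Bcl7b, which encodes a subunit of BAF chromatin remodelling complexes, with a score of 1.578, then Yap1 (the Hippo pathway coactivator, 1.514), Tiam1 (a Rac exchange factor, 1.504), Spata6 (needed for the sperm head-tail connection, 1.488) and Clasp1 (a microtubule plus-end protein, 1.480). All 5 were still near the top in diplonema, the lowest being Tiam1 at a rank of 93.3, but the best peaks of Clasp1 lie at different promoters in the 2 lists. In diplonema the highest scores belonged to Nckap1l (1.425), a subunit of the WAVE complex, and to Cetn3 (a centrin, 1.421) and Clasp1 (1.421). Cetn3 had ranked at 90.8 in pachynema. The best peaks of Yap1, Tiam1, Spata6, Clasp1 and Nckap1l lay at TSSs inside these genes that are annotated to transcripts without a coding sequence, not at the start of the gene.

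The largest rise was that of Ube2d2b, a gene for a ubiquitin-conjugating enzyme of the UBE2D group on chromosome 5. It scored 0.651, 0.595 and 1.103 in leptonema/zygonema, pachynema and diplonema, and its rank went from 16.4 to 84.2, a relative change of 72.1 points (35.1 with summed scores and 48.1 with peaks ranked among all autosomal peaks). The pachynema peak ran from 107829981 to 107830410 and the diplonema peak from 107829651 to 107830640, so the same TSS at 107830099 was covered by a wider peak. Dnah1, an axonemal dynein heavy chain of the sperm flagellum, went from a rank of 35.3 to 98.4 (scores 0.882 and 1.271). Of the 10 largest rises it reached the highest diplonema rank. Its peaks covered the same TSS at position 31323896 of chromosome 14 in both substages.

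The other large rises were of mixed function. Lrrc3, a leucine-rich repeat protein, rose from 10.5 to 72.1. Kcnmb4, an auxiliary subunit of the BK potassium channel, rose from 20.4 to 81.0, and Asb1, an ankyrin and SOCS box protein, from 26.4 to 83.2. Actl9, an actin-like protein of the sperm head, rose from 29.2 to 87.1. Its best peaks lay 526 bp from the TSS in pachynema and 326 bp in diplonema, and its relative change of 62.2 points was 22.4 when only peaks over the TSS counted. Mtfp1 (mitochondrial fission), Prdm15 (a zinc finger regulator), Adamts6 (a secreted metalloprotease) and Zmat2 (a splicing factor) rose by 59.3 to 60.0 points. When the scores of the peaks in reach were summed, Prdm15 reversed to -16.9 points and the relative changes of Dnah1 and Kcnmb4 were 11.1 and 14.2, short of a rise. With summed scores Lrrc3, Asb1, Actl9, Mtfp1 and Adamts6 rose by 27.5 to 35.9 points. With distances taken from the peak centre the change of Mtfp1 was 8.27.

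Promoter sequences are shown for the leading genes of each class whose TSS lay inside the best peak and whose upstream window touched no annotated exon. They run 5′ to 3′ on the strand of the gene over the 250 bases before the TSS, from the RefSeq sequence of GRCm38 (mm10). Capitals mark matches, on either strand, to a fixed set of short motif letters described below. Ube2d2b (chr5:107829849-107830098, plus strand) and Lgals8, a galectin gene (chr13:12464945-12465194, minus strand), are shown as promoters that rose. Lgals8 went from a rank of 33.8 to 88.2.
Ube2d2b: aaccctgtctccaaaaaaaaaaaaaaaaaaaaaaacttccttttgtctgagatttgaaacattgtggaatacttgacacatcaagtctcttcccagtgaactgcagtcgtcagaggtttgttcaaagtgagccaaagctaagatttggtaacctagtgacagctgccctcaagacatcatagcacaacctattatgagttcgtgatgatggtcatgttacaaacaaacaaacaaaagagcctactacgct
Lgals8: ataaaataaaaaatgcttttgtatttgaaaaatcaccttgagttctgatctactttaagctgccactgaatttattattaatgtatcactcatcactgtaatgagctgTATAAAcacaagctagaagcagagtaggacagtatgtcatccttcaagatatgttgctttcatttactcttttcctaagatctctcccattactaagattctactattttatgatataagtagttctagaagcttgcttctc

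Both windows are poor in G and C, at 38.4% and 31.6%, against a median of 62.3% for promoters that rose, taken over the slightly longer window described below. The Ube2d2b window holds 3 CpGs and none of the motif letters. The window of Lgals8 holds no CpG and 1 match to TATAAA, 142 bases before the TSS.

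The largest fall was that of Ccdc175, a coiled-coil protein gene on chromosome 12. It scored 1.344, 1.276 and 0.324 in the same order of substages, so that its rank went from 90.7 to 3.35. The peak over its TSS at 72185029 narrowed from 72184421-72185420 to 72184761-72185240. Grhl1, a Grainyhead-like transcription factor gene of epithelia, also kept a peak over the same TSS, at 24572283 of chromosome 12, while its rank went from 92.8 to 12.1. Prkar2b, a regulatory subunit of protein kinase A, went from 97.6 to 16.5. E2f1, a cell-cycle transcription factor that activates S phase genes, went from 82.8 to 6.56, with scores of 1.23 and 0.366. These 4 promoters had also scored 1.16 or more in leptonema/zygonema. Their relative changes were -83.0, -76.4, -76.8 and -72.0 points in the order named, and with summed scores the falls were smaller, at -22.0, -33.7, -26.5 and -27.7.

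Ppard, which encodes a nuclear receptor for fatty acids, had the second largest fall, from 99.8 to 14.5, but its best peaks belong to different promoters. The pachynema peak lay 862 bp from the TSS at 28272119 of chromosome 17 and the diplonema peak over the TSS at 28232700. With a reach of under 500 bp its relative change was -23.6 points instead of -81.0. The remaining genes named from the largest falls encode enzymes of different kinds. Whether any function is over-represented among the falls was not tested. Nadsyn1 (NAD synthetase, whose pachynema peak also serves Dhcr7), St6galnac3 (a sialyltransferase), Zdhhc18 (a palmitoyltransferase), Degs1 (dihydroceramide desaturase) and Pygb (glycogen phosphorylase) fell to diplonema ranks of 3.27 to 17.7. St6galnac3 was the exception among them in leptonema/zygonema, with a score of 0.853 before 1.318 in pachynema. With summed scores the relative changes of St6galnac3, Degs1 and Nadsyn1 were -14.6, -14.8 and -18.1 points, short of a fall, and those of Zdhhc18 and Pygb were -38.4 and -42.7.

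Ccdc175 (chr12:72185030-72185279, minus strand) and Grhl1 (chr12:24572033-24572282, plus strand) are shown as promoters that kept their start site and fell.
Ccdc175: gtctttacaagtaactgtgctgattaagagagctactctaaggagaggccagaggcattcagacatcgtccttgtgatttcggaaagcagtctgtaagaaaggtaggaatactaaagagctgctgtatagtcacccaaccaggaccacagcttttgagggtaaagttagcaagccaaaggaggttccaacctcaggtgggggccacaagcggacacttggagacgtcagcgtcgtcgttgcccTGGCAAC
Grhl1: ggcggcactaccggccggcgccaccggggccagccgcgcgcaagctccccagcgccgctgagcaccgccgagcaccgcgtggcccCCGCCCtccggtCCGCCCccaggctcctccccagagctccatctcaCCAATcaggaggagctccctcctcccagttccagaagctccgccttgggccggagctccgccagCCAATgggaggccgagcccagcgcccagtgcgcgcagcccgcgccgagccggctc

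The windows are unlike in composition. That of Ccdc175 is 50.0% G and C with 7 CpGs and ends, 7 bases before the TSS, in a match to the RFX letters. That of Grhl1 is 76.4% G and C with 28 CpGs, 2 matches to the SP/KLF letters at 165 and 153 bases and 2 CCAAT boxes at 119 and 55 bases before the TSS.

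The strongest pachynema promoters without a diplonema call were few. Slc12a8, a solute carrier gene, had a pachynema score of 1.365 and a rank of 98.4, but the peak lay 990 bp from its nearest TSS, just inside the reach, and its leptonema/zygonema score was 0.261. Arhgap24, a Rac GTPase-activating protein gene, scored 1.336 with its peak 811 bp from the TSS. Prss58, a trypsin-like serine protease gene, scored 1.256 in leptonema/zygonema and 1.222 in pachynema, with a peak over its only TSS, at 40900387 of chromosome 6. Col19a1 (collagen XIX, 1.209), Gltp (glycolipid transfer protein, 1.206), Rab6b (a Golgi GTPase, 1.190), Gja3 (a lens connexin, 1.181), Actn2 (muscle alpha-actinin, 1.177), Unc5cl (a death domain protein, 1.176) and the olfactory receptor Olfr303 (1.170) followed. The best pachynema peak of Col19a1 likewise lay at a TSS of a non-coding transcript inside the gene. The TSS nearest to the best peak of Slc12a8 was also that of such a transcript. Each of the 7 genes from Col19a1 to Olfr303 scored between 0.989 and 1.376 in leptonema/zygonema.

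Genes called in diplonema only had weak calls. Their median score was 0.3535, the highest was 0.723, and 84.7% scored under 0.5. Fewer of their peaks covered a TSS, 47.3% against 82.3% of the diplonema peaks of kept genes. The first were Pcdha2 of the protocadherin alpha cluster (0.723, its peak 787 bp from the TSS) and Faap100, a subunit of the Fanconi anaemia core complex (0.720, its peak over a TSS). Marveld1 (0.684), Ddr1 (a collagen receptor kinase, 0.666), Zfp429 (a zinc finger protein, 0.650), Axl (a receptor tyrosine kinase, 0.644), Pcp4l1 (0.621), Cd93 (a cell surface glycoprotein of endothelium, 0.619), Parp4 (a vault protein, 0.605) and Tmem50a (0.588) came next. Of these 10 genes, 7 had a leptonema/zygonema call (39.3% of all gained genes did), and Pcdha2 was the highest there at 1.069. When a pachynema peak under 5000 bp was also required to be absent, 99 of the 150 gained calls remained.

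Prss58 (chr6:40900388-40900637, minus strand) is shown as a promoter called only up to pachynema, and Pcp4l1 (chr1:171196269-171196518, minus strand) as one called in diplonema but not in pachynema.
Prss58: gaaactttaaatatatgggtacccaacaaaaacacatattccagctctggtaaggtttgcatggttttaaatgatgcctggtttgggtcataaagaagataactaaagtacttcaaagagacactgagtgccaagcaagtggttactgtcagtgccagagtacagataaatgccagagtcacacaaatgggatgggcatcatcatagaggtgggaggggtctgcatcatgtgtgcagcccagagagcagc
Pcp4l1: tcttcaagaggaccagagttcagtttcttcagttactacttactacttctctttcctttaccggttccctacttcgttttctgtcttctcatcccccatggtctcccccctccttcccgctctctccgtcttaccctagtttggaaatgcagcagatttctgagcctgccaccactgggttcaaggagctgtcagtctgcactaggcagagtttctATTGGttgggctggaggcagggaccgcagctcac

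The Prss58 window has no CpG and none of the motif letters, and that of Pcp4l1 has 5 CpGs and 1 CCAAT box, read on the opposite strand, 34 bases before the TSS.

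The earlier substage gave a further view of the classes, with no part in how they were set. Of the genes that fell, 1761 of 1767 (99.7%) were called in leptonema/zygonema, against 97.2% of all kept genes. Their median rank was 68.3 there, 70.5 in pachynema and 29.6 in diplonema. Genes that rose had median ranks of 47.3, 48.3 and 74.4. The distance of diplonema from pachynema is set by how the classes were chosen, and only the leptonema/zygonema ranks had no part in it. Of the lost genes, 77.8% were called in leptonema/zygonema, at a median rank of 18.8. Of the gained genes 39.3% were. The share was 97.2% of kept genes, 7.46% of genes called in neither pachynema nor diplonema and 60.7% of all genes. The score order of diplonema was also the less similar to leptonema/zygonema, with a Spearman rho of 0.550 against 0.768 for pachynema over the 10439 kept genes called in all 3 lists. The diplonema list is the shortest of the 3, at 38603 peaks against 68352 in pachynema and 71107 in leptonema/zygonema. The part of depth in this difference was not tested.

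**Figure D3:**
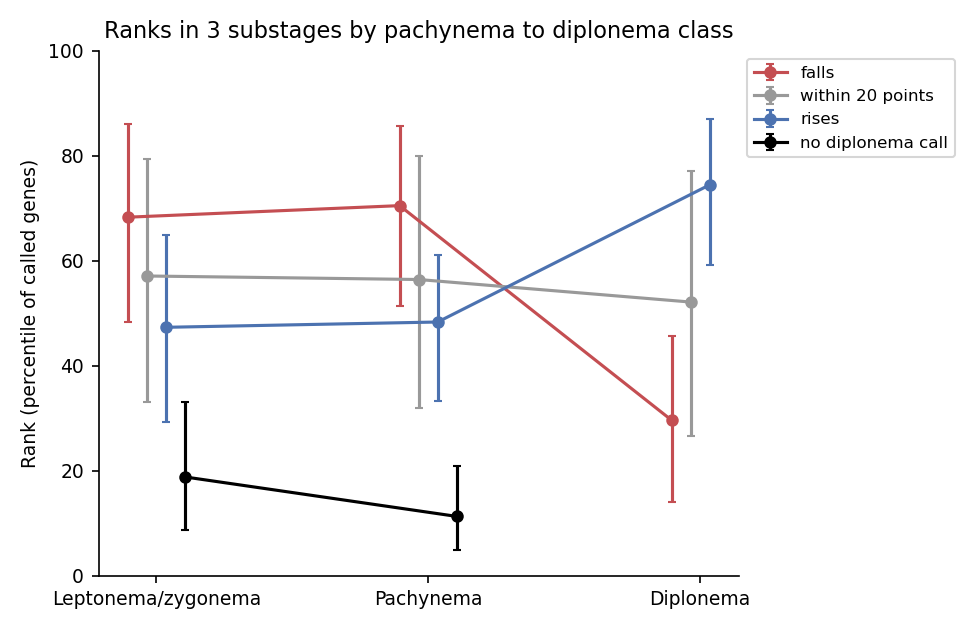
Ranks in the 3 substages (percentile of called genes, vertical axis) of genes classed by their change from pachynema to diplonema. Points are medians and bars run from the lower to the upper quartile. Falls drop from a median of 70.5 to 29.6 and rises climb from 48.3 to 74.4 after pachynema, while lost genes lie low in the substages in which they were called.

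The share of lost calls also followed the leptonema/zygonema rank, a ranking from separate libraries. It was 59.3% for pachynema genes without a leptonema/zygonema call, 37.5% in the lowest 25 points, then 13.6%, 3.72% and 1.52%. Falls ran the other way, from 1.98% of kept genes without a leptonema/zygonema call to 23.0% in its highest 25 points. Within the lowest 25 points of pachynema, however, the share lost stayed between 43.9% and 69.2% across the leptonema/zygonema groups, the last of them over 26 genes. Of the 303 kept genes without a leptonema/zygonema call, 242 were in those lowest pachynema points, and 0 of them fell. Between 25 and 50 points of pachynema, falls ran from 7.27% without a leptonema/zygonema call to 22.2% in its highest 25 points. Between 50 and 75 points they ran from 16.2% to 33.3%, the latter over 6 genes without such a call. In the highest 25 points of pachynema they stayed between 22.3% and 25.5%.

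Gene lists drawn from the biology of the testis were set beside all genes, for which 15.6% of pachynema calls were lost, 16.4% of kept genes fell, 11.9% rose and the median relative change is 0 by construction. Lists are described by counts and medians only. The highest median of the lists in the plot was that of spermatid chromatin proteins, the histone variants, transition proteins and protamines of the spermatid together with enzymes and readers that act on its chromatin. Of its 21 kept genes 11 rose, from 9 distinct peaks, and only Rnf8 fell, with a median relative change of 23.3 points. Tnp1, the major transition protein gene, rose the most, from a rank of 42.0 to 73.8. Prm1 and Prm2, the protamine genes, share a single peak that went from 14.6 to 39.9, and scored 0.747 in diplonema. Hist1h2ba and Hist1h2aa, the testis histone pair, share a peak that went from 60.3 to 88.9. H1fnt and Hils1, linker histones of the spermatid, rose, as did the variant genes H2afz and H2afx and the chromatin regulators Cdyl and Kat5. These are rises in rank. The score of H1fnt was 0.839 in pachynema and 0.849 in diplonema, and that of Hils1 was 1.136 and 1.126. Rnf8, a ubiquitin ligase of chromatin, went from 66.3 to 29.3, the pachynema peak lying 905 bp from a TSS and the diplonema peak over another. Hist3h2ba (1.017 in pachynema), Hist1h1t, the testis linker histone, and Sirt6 had no diplonema call. Tnp2 and Prm3 had no call in either substage. The part of contaminating spermatids in these values was not tested. The median of this list was 7.27 points with summed scores and 10.6 points when peaks were ranked among all autosomal peaks.

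The piRNA pathway, which silences transposons and processes pachytene piRNA precursors, came next with 10 rises and 4 falls among 25 kept genes and a median of 13.5 points. Piwil1, the PIWI protein loaded with pachytene piRNAs, scored 0.796, 1.116 and 1.264 through the 3 substages and rose from a rank of 61.9 to 98.3. The Tudor domain genes Tdrd3, Tdrd5, Tdrd6, Tdrd7, Tdrkh and Rnf17 rose, as did Mael, the helicase gene Mov10l1 and the piRNA methyltransferase gene Henmt1. The falls were of Gpat2, a mitochondrial acyltransferase-like protein, from 86.4 to 45.3, of Fkbp6, a cochaperone, and of Btbd18 and Mybl1, regulators of transcription from piRNA loci. Tex15, a partner of the nuclear PIWI protein, had no diplonema call after a pachynema score of 1.043. This median was 0.302 points with summed scores and 6.28 points when peaks were ranked among all autosomal peaks.

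**Figure D4:**
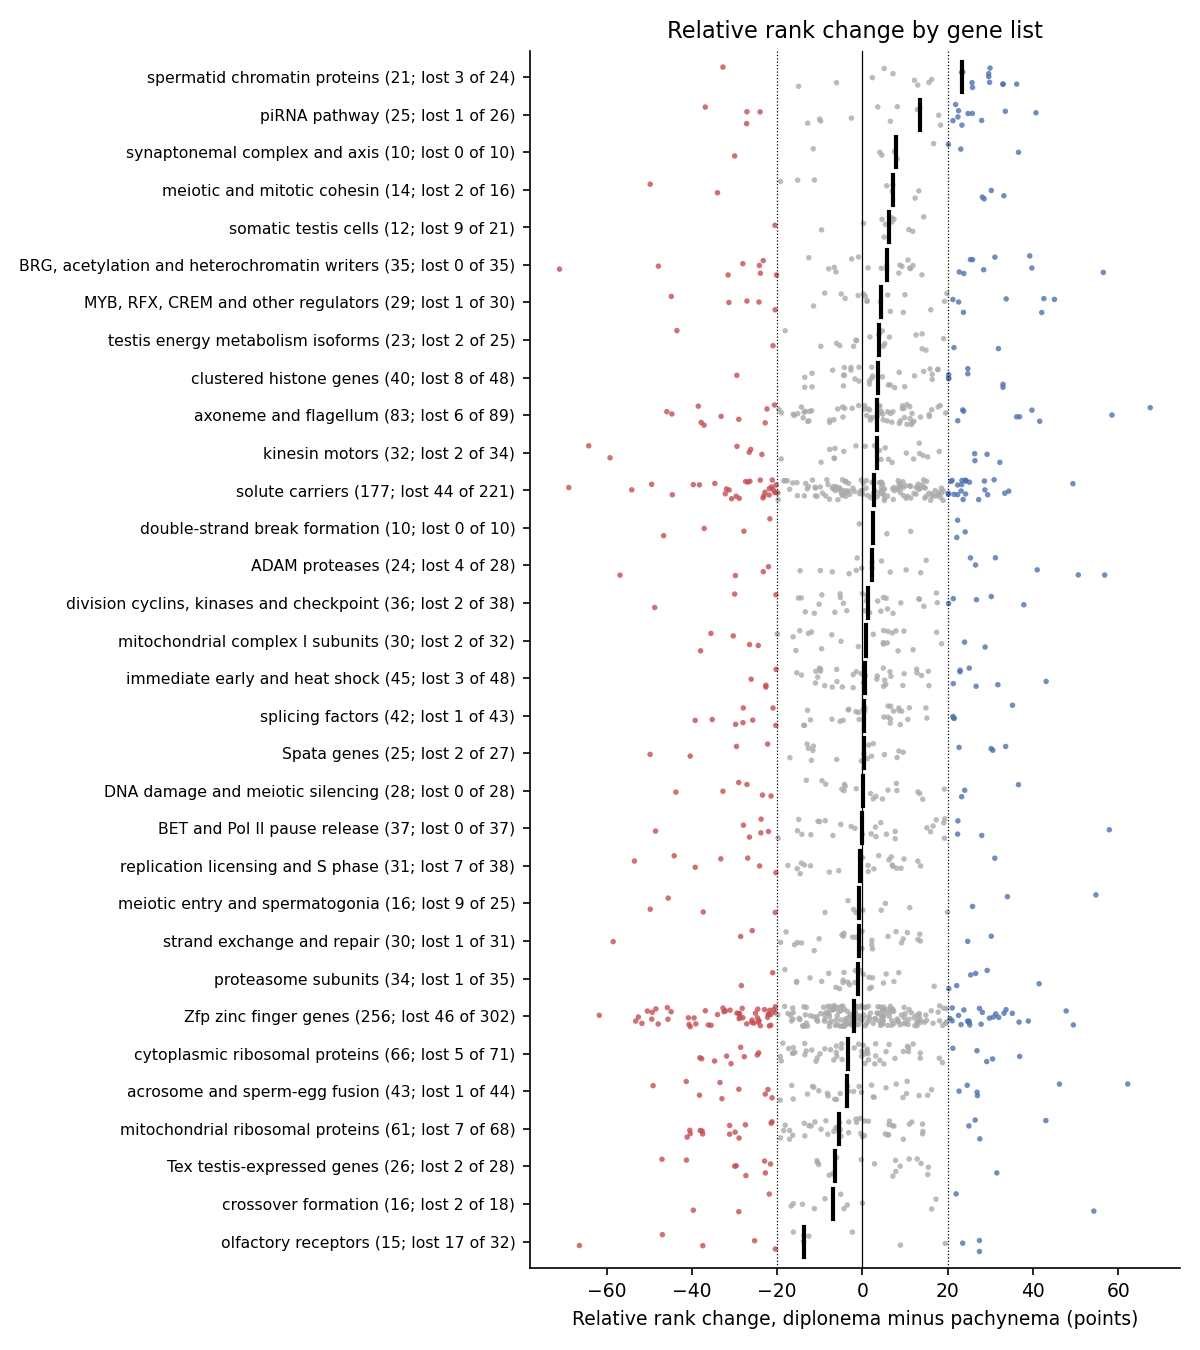
Relative rank change from pachynema to diplonema, in percentile points (horizontal axis), of every kept gene in the lists with at least 10 kept genes (rows). Points are genes, coloured where they rose or fell by 20 points or more, bars are list medians, and the labels give the kept genes and the calls lost of those in pachynema. Spermatid chromatin proteins (median 23.3) and the piRNA pathway (13.5) stand at the top, crossover formation (-6.94) and olfactory receptors (-13.7) at the bottom.

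Genes of meiotic chromosomes moved in both directions. All 10 called genes of the synaptonemal complex and axis were kept, and Sycp2, Sycp3 and Hormad2 rose. Hormad2, a HORMA domain protein of unsynapsed axes, went from 54.1 to 86.3. Tex12, a component of the central element, fell from 92.3 to 58.0. The list's median of 7.79 points reversed to -1.41 with summed scores. Among 10 genes of double-strand break formation 4 fell. Mei4 and Rec114, partners in the machinery that activates SPO11, fell by 46.6 and 37.1 points. Prdm9, the methyltransferase that places hotspots, went from 70.5 to 38.4, and Hells, its remodelling partner, also fell. Ewsr1, whose peak also serves Rhbdd3, Zcwpw1, a reader of the PRDM9 marks, and Cxxc1 rose.

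Genes of later recombination steps were described in the same way. Of 30 kept genes of strand exchange and repair 3 fell and 2 rose, and of 16 of crossover formation also 3 fell and 2 rose. Mnd1 fell from 79.4 to 16.6, and Psmc3ip, which encodes its partner in the HOP2-MND1 complex, lost a weak call of 0.305 after a leptonema/zygonema score of 1.008. In crossover formation the median was -6.94 points, and -2.92 when peaks were ranked among all autosomal peaks. Mlh3 and Msh5, mismatch repair relatives that act at crossovers, and Sun1, which tethers telomeres to the nuclear envelope, fell, Mlh3 from 59.0 to 15.0. Terb1, which links telomeres to SUN1, rose from 23.5 to 73.4, while its partner Terb2 had no diplonema call. Cntd1, a cyclin-like crossover factor whose peak also serves Coa3, rose from 55.4 to 73.0.

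Of 14 kept cohesin genes 4 rose, 2 fell and 8 stayed within 20 points. Rec8, the meiotic kleisin loaded at premeiotic S phase, scored 1.369, 1.074 and 0.292 through the 3 substages and fell from a rank of 55.4 to 1.28. Rad21, the mitotic kleisin, rose from 28.4 to 54.3. Pds5b rose by 33.2 points and its paralogue Pds5a fell by 34.0. Esco1 and Mau2 rose, whereas the acetyltransferase gene Esco2 (0.904 in pachynema) and the cohesin loader gene Nipbl had no diplonema call. The list's median of 7.07 points was 0.787 with summed scores.

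DNA damage signalling, which also acts in silencing the sex chromosomes, had 28 kept genes and no lost call. Only 1 of the 28 was in the lowest 25 points of pachynema, where 51.6% of calls were lost over all genes. H2afx, the histone phosphorylated at breaks and over the sex body, rose from 74.96 to 93.9. Hormad2 and the kinase gene Chek1 also rose. The ubiquitin ligase genes Rnf8 and Rnf168 fell, Rnf168 from 95.1 to 67.3. Chek2, Rad17 and Rad9b, of the checkpoint kinase and clamp machinery, fell by 21.4 to 29.0 points, and Ehmt1, an H3K9 methyltransferase, fell from 87.0 to 38.9. Atr, the kinase required for meiotic sex chromosome inactivation, was near the top of both lists, at 94.9 and 96.6.

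Of the 38 pachynema calls of replication genes, which serve the S phase before prophase I, 7 were lost (18.4%, against 15.6% of all genes). Only 6 of the 38 were in the lowest 25 points of pachynema, where 51.6% were lost over all genes. From above those points came 2 of the lost calls. The lost calls were those of Mcm6 with a score of 0.930, the licensing factor gene Cdt1 and the genes Prim1, Pold1, Rrm1, Tyms and Gins4. Another 7 of 31 kept genes fell (22.6%, against 16.4% of all) and 1 rose. The falls included Mcm2, Orc1 and Orc2 and the clamp loader genes Rfc4 and Rfc5, of which Rfc5 went from 89.6 to 31.8. Pcna, the sliding clamp itself, rose from 53.4 to 80.2. The median over the 31 kept genes was -0.462, and -5.65 when only protein-coding transcripts gave start sites.

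Genes of spermatogonia and meiotic entry lost 9 of 25 pachynema calls (36.0%, against 15.6% of all genes). All 8 calls in the lowest 25 points of pachynema were lost, where 51.6% were lost over all genes, and 1 above them. They included Stra8, the retinoic acid responsive gene of meiotic entry, the regulators Sohlh1 and Sohlh2, and Lin28a and Ret of spermatogonia. Sall4, at a pachynema score of 0.860, was the highest of them. Kit and Dmrt1 fell by 37.3 and 45.6 points. Dmrtb1, a regulator of the switch from mitosis to meiosis, rose from 38.6 to 89.1, and Dazl, an RNA-binding protein of germ cells, rose by 25.8 points. The median relative change of the 16 kept genes was -0.693 points, and -23.0 with summed scores. Upp1 gained a weak call of 0.344.

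Transcriptional regulators of spermatogenesis rose in 7 and fell in 5 of 29 cases. Mybl1 (A-MYB), the regulator of pachytene transcription, scored 1.130, 1.159 and 0.727 and fell from 69.3 to 37.9, also between different peaks. Mybl2 had a pachynema score of 0.691 and no diplonema call, and Myb had no call in any substage. Creb1 rose from 42.0 to 79.7, between different peaks. The Y-box genes Ybx2 and Ybx1, whose products bind DNA and stored mRNA, rose from 31.8 to 72.5 and from 47.3 to 76.7. Sox30, which activates spermatid genes, and Tbpl1, the TBP-like factor, rose, while Sox5, Rfx4, Atf1 and Hdac1 fell, Sox5 from 63.8 to 14.7. Rfx2, at 19.8 points, was just short of a rise. Ovol1 gained a call of 0.307.

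BET proteins and the factors that pause and release RNA polymerase II kept all 37 calls. Only 1 of the 37 was in the lowest 25 points of pachynema, where 51.6% of calls were lost over all genes. Polr2a, the gene for the largest subunit of the polymerase, scored 0.774, 0.960 and 1.221 and rose from 42.4 to 95.9. The genes for the NELF pausing complex parted. Nelfa rose, whereas Nelfb, Nelfcd and Nelfe fell by 22.0, 26.5 and 27.9. Supt4a, a subunit of DSIF, fell from 58.5 to 5.67. Brdt, the testis BET gene, had a relative change of -10.0 points, from 82.1 to 67.7. Over the list 6 fell and 4 rose, with a median of -0.0181.

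Chromatin enzymes had 9 rises (25.7%) and 8 falls (22.9%) in 35 kept genes and no lost call. Only 2 of the 35 were in the lowest 25 points of pachynema, where 51.6% of calls were lost over all genes. Kdm5b, an H3K4 demethylase, rose from 31.7 to 83.9 between different peaks, and Crebbp (a histone acetyltransferase) and Tet2 (a 5-methylcytosine dioxygenase) by 39.2 and 39.7 points. Suv39h2, the testis H3K9 methyltransferase, had the largest fall of this list, from 81.1 to 5.79. Ezh1 and Setd2, methyltransferases of H3K27 and H3K36, fell by 47.9 and 31.5 points. Among DNA methylation genes Dnmt3b rose and Dnmt3a and Dnmt3l fell.

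Genes of the spermatid and sperm included both rises and falls. Of 43 kept acrosome and sperm-egg fusion genes 9 fell and 6 rose. Actl9 led the rises, followed by Pmfbp1, a head-tail coupling protein, at 46.2 points, and Acrbp, the proacrosin-binding protein, rose by 26.9. Prss37, Zp3r, Izumo3, Hyal5 and Spam1, the last a hyaluronidase of the sperm surface, fell by 29.0 to 49.1 points, and Actl7a lost a call of 0.431. Among the ADAM surface proteases Adam2, Adam3 and Adam32 rose by 41.0, 56.8 and 50.6 points. Adam1a, whose peak also serves Mapkapk5, fell from 70.8 to 9.66. Adam8, Adam22, Adam23 and Adam34 had no diplonema call.

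Of 83 kept axoneme and flagellum genes 10 fell and 9 rose, with a median of 3.48 points. Besides Dnah1, the dynein genes Dnah7a, Dnah7b and Dnah12 rose, and Dnah6 fell by 44.7 points. Catsperb and Catsper2, of the sperm calcium channel, rose by 58.5 and 36.2 points. Ttc21a, whose peak also serves Gorasp1, fell from 83.8 to 33.6, and the intraflagellar transport genes Ift20 and Ift74 fell. Dnah11 (0.900 in pachynema), Tekt2 and Tekt5 were among 6 lost calls. In the testis-specific kinase list Stk33 rose from 64.2 to 94.2, Tssk6, which shares its peak with Ndufa13 and Yjefn3, fell from 36.1 to 7.32, and Tssk4 lost a call of 0.702. Among germ-cell energy isoforms Pgam2 rose from 43.7 to 71.3 and Aldoart1 fell by 43.5 points.

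Of 36 kept genes of the meiotic divisions 3 fell (8.33%, against 16.4% of all genes) and 5 rose (13.9%, against 11.9%), with a median of 1.36 points. The cyclin gene Ccna1, Cdc20 and Haspin rose. So did Fbxo43, an inhibitor of the anaphase-promoting complex, which scored 0.335, 1.038 and 1.102 through the 3 substages and went from 50.5 to 84.0. Its paralogue Fbxo5 fell by 30.0 points, Bub1, a kinase of the spindle checkpoint, fell from 76.0 to 23.0, and Ccnb2 fell by 20.3. Ccna2, the mitotic A-type cyclin gene, and Cdc25b had no diplonema call.

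Housekeeping lists were read against the 16.4% of falls and 11.9% of rises in all genes. Of 61 kept mitochondrial ribosomal protein genes 13 fell (21.3%) and 4 rose (6.56%), with a median of -5.49 that reversed to 3.55 with summed scores. Among 66 kept cytoplasmic ribosomal protein genes 9 fell (13.6%) and 5 rose (7.58%). Rps21 went from 82.1 to 39.6 and Rpl14 from 50.8 to 83.3. The 34 kept proteasome genes had 2 falls and 6 rises (17.6%), of which Psma3 was the largest at 41.4 points. Splicing factors had 8 falls (19.05%) and 4 rises (9.52%) among 42, and complex I subunits 5 falls and 2 rises among 30.

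Gene families best known outside the germ line are given beside the 15.6% of calls lost in all genes and the 51.6% lost in the lowest 25 points of pachynema. Hox genes lost 9 of 13 pachynema calls, keratins 6 of 9, olfactory receptors 17 of 32 and collagens 9 of 18. Of these pachynema calls 9, 6, 15 and 11, in the same order, were in those lowest 25 points, and 1, 1, 4 and 2 of the lost calls came from above them. The 15 kept olfactory receptors had a median relative change of -13.7 points, which was -1.14 with summed scores. A few members were high. Olfr701 scored 1.427 in pachynema and fell to 0.635, a rank of 29.1, and Krt88 stayed high at 91.5 and 96.7. Grouped by the letters of the symbol, 62 families had at least 20 pachynema calls. Olfactory receptors lost the largest share (53.1%), followed by the symbols C (33.3%), Gpr, the G protein-coupled receptors (29.2%), H (26.9%) and the Trim genes. Of the 21, 24, 26 and 48 pachynema calls of C, Gpr, H and Trim, 5, 9, 10 and 17 were in the lowest 25 points. From above those points came 4, 1, 2 and 3 of their lost calls. No call was lost among the Cep (centrosome), Gtf (general transcription factor), Med (Mediator) and Mettl (methyltransferase-like) genes. Of their 36, 23, 28 and 22 pachynema calls, however, only 1, 0, 3 and 1 were in the lowest 25 points. The highest median relative changes were those of Zbtb (9.17) and Fbxo (8.86) genes.

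Promoter sequence was compared from 250 bases before to 50 bases after the TSS nearest the best peak. Falls and rises hardly differed in base composition, with a median G and C content of 62.3% in both and median observed-to-expected CpG ratios of 0.771 and 0.811. Lost promoters had a lower CpG ratio of 0.651, and genes called in neither substage a ratio of 0.211. Within the lowest 25 points of pachynema the ratio was 0.630 for lost and 0.672 for kept promoters. Motif letters were searched on both strands, and matches of different motifs can overlap, as those of MYB and SP/KLF do where a G fills the open position. The clearest difference was in GGCNGTT, the core bound by MYB proteins. It was present in 19.5% of promoters that rose, 15.1% of those within 20 points and 11.2% of those that fell. The share was 12.9% of all 20807 promoters and 14.5% of those of genes called in pachynema. The difference between rises and falls was 8.25 percentage points, and 3.91 when peaks were ranked among all autosomal peaks. Kept genes with it had a median relative change of 3.32 points (1606 genes) and those without it -0.689 (9136 genes). The order held in each band of pachynema rank in which all 3 classes were filled. In the highest 25 points the shares were 23.3% of 73 rises, 18.7% of 2355 within and 11.1% of 740 falls. The shares are descriptions of promoters in these lists, and a match is not a bound site.

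**Figure D5:**
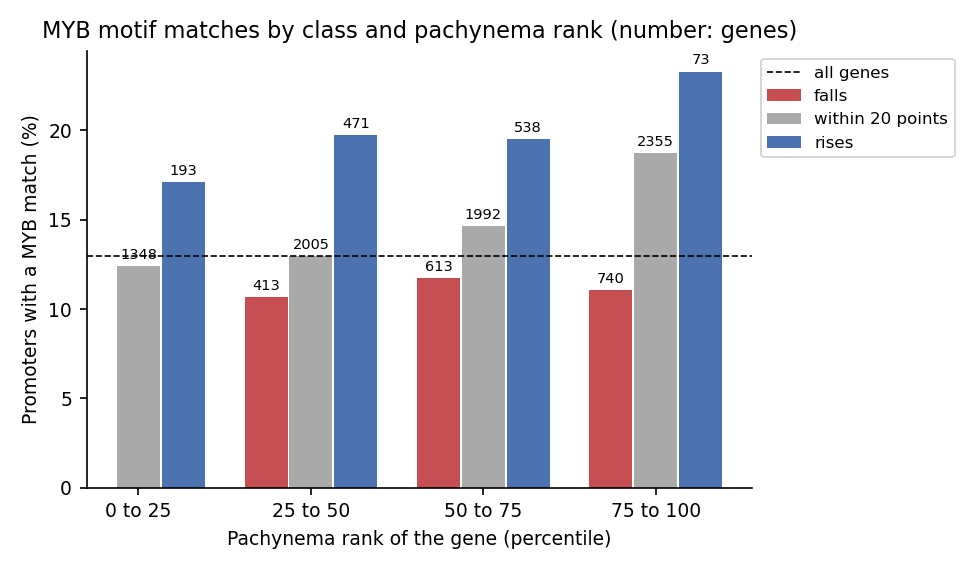
Share of promoters with a match to GGCNGTT (percent, vertical axis) among genes that fell, stayed within 20 points or rose, for 4 bands of pachynema rank (horizontal axis), with the number of genes above each bar and the share in all genes, 12.9%, as a dashed line. Rises have the highest bar in every band, from 17.1% in the lowest to 23.3% in the highest. Falls are not drawn in the lowest band, where 1 gene fell.

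The other letters differed less between falls and rises. CCGGAAG, of ETS factors, was in 19.2% of falls, 19.04% of genes within 20 points, 14.8% of rises and 7.68% of lost promoters, against 11.6% of all promoters. CACGTG, the E-box, was in 11.9% of falls and 10.1% of rises (7.94% of all). For GTTGCCA of RFX factors the shares were 5.21% and 4.71% (4.47% of all), for TGACGTCA of the CRE 3.40% and 3.45% (2.47% of all) and for GCATGCGC of NRF1 5.83% and 5.73% (3.49% of all). For GGGCGG of SP/KLF factors they were 63.8% and 64.6% (46.9% of all), for CCAAT 39.2% and 38.04% (37.3% of all) and for TATAAA 4.98% and 5.88% (11.8% of all). All promoters include those of the 7923 genes called in neither substage. Among genes called in pachynema the shares were 16.9% for ETS, 10.3% for the E-box, 4.89% for RFX, 3.48% for the CRE and 5.24% for NRF1. They were 63.4% for SP/KLF, 36.8% for CCAAT and 6.04% for TATAAA. Catsperb (chr12:101404403-101404652, plus strand) and Slc6a16, a solute carrier gene (chr7:45240835-45241084, plus strand), are shown as promoters that rose and hold the MYB letters.
Catsperb: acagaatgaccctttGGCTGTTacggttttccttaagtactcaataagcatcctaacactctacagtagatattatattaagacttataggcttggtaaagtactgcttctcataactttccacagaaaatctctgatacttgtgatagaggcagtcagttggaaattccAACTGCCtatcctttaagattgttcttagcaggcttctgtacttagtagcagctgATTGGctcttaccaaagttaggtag
Slc6a16: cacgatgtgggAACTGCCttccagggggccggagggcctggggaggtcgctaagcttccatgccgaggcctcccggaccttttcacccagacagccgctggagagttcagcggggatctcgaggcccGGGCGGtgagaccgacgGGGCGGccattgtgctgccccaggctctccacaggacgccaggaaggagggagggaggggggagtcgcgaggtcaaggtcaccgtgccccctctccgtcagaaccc

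Catsperb has matches to the MYB letters 235 and 80 bases before the TSS and a CCAAT box at 25 bases. It scored 0.412, 0.929 and 1.193 through the 3 substages, and its rank went from 5.91 to 39.5 and 93.7. Slc6a16 has a match at 239 bases and SP/KLF letters at 123 and 106 bases. Its rank went from 35.8 in pachynema to 80.8 in diplonema, with scores of 0.888 and 1.076.

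Gene structure and position were also described. Lost genes were shorter, with a median length of 18.6 kb against 25.7 kb for genes that fell and 29.0 kb for those that rose. Within the lowest 25 points of pachynema the medians were 17.5 kb for lost and 20.6 kb for kept genes. The share lost dropped with the number of TSSs, which are also chances for a peak to be in reach, from 21.6% of genes with 1 TSS to 9.95% of genes with 8 or more. Across the 19 autosomes the share lost ran from 10.5% on chromosome 16 to 17.3% on chromosome 14, and the median relative change from -1.99 points on chromosome 6 to 2.15 on chromosome 13. Few genes lay at the edge of the rule. In pachynema 22 genes had their nearest peak in the last 100 bp inside the limit of 1000 bp (median score 0.508) and 30 in the first 100 bp outside it (0.423). In diplonema the numbers were 32 (0.387) and 28 (0.4665).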

How the data were processed

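leChRO-seq libraries of 3 substages (4 each) were processed by the authors, who used PRINSEQ lite to remove reads with repeated molecular identifiers, cutadapt for trimming and BWA for alignment against mm10 plus rRNA, pooled the libraries of a substage and called peaks with dREG at default settings. Versions are not given in the sources used here. For each peak the authors deposited a dREG score, with no fixed range. The deposited p-value of each peak, at most 0.05, was used only as a filter in 1 alternative, and it is not stated whether it is adjusted.

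Gene scores, ranks (ties averaged) and classes were computed with Python 3.11.15, numpy 2.4.6, pandas 2.3.3 and pysam 0.24.0, and drawn with matplotlib 3.10.9. On simulated peaks and TSSs at random positions, 0 of 8000 gene calls were wrong. In a copy of the pachynema gene scores with little added noise, 100 of 100 planted losses and 100 of 100 planted falls were found. These checks cover the computation only, not how far noise between real lists moves ranks or calls. The members and lists were chosen with earlier results of these data known. Genes named are the 10 largest rises and falls, the 10 highest lost and gained, the 5 highest of each substage, genes the study names, and up to 4 members of each list (largest rise and fall, highest lost and gained), without predicted gene names. Other list members, and the promoters shown, were chosen after their values were seen. There are 27 symbols carried by 2 gene identifiers, which were kept apart. No test was made, since each substage has 1 pooled list.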

Additional observations from a re-analysis of the deposited data

How the results depend on the processing

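Each count was recomputed with another reach or TSS set, stricter score or p-value limits, lists of equal length, and other ways of scoring and ranking. Of 42 alternative counts of lost, gained, fallen and risen genes, 38 were within 1.5 times the main count. With lists of equal length 948 calls were lost and 640 gained, 99 gained calls had no pachynema peak under 5000 bp, and 294 genes rose when peaks were ranked among all autosomal peaks. Over all alternatives the lost calls ran from 948 to 2470 and the falls from 1718 to 1870. Of 391 alternative list medians 369 moved by under 5 points, but 44, in 19 lists, had the opposite sign, so medians under 5 points give no direction. The furthest move was that of the meiotic entry list, from -0.693 to -23.0 with summed scores. Of the lists with larger medians 3 reversed, the synaptonemal complex (-1.41) and mitochondrial ribosomal proteins (3.55) with summed scores and the Tex genes (0.671) when peaks were ranked among all autosomal peaks. Prdm15 reversed to -16.9 with summed scores. The MYB difference between rises and falls kept its direction, at 3.91 to 8.38 percentage points. The cause of these changes was not tested. No paired analysis was possible because the libraries were pooled into 1 list per substage, and no replicate could be left out. The depth of the pooled lists was not compared, and a promoter below the detection limit of the shorter list cannot be told apart from one without initiation.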

Other observations

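Promoters of stress and immediate early genes, which can be induced while a tissue is dissociated, are described here because the testes were dissociated before the run-on. Of 45 kept genes 7 rose (15.6%, against 11.9% of all genes) and 4 fell (8.89%, against 16.4%), the falls from 3 distinct peaks. The median relative change was 0.653 points. Jund and Ier5 rose, Ier5 from a rank of 52.2 to 91.0, as did Atf3, Gadd45g, Bag3, Hsp90aa1 and Hspa2, the testis HSP70 gene. Nr4a1 fell from 96.7 to 66.3 and Nr4a2 had no diplonema call after a pachynema score of 0.925. Hspd1 and Hspe1, the mitochondrial chaperonin pair, share a peak that fell by 22.6 points.

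Of 256 kept zinc finger genes of the Zfp series, 53 fell (20.7%, against 16.4% of all genes) and 24 rose (9.4%, against 11.9%). Their median was -2.09 points. Zfp930 fell from 84.0 to 17.9, Zfp9 rose from 31.0 to 76.1, and Zfp7 lost a call of 1.047. Kinesin motors had 6 falls (18.75%) and 4 rises (12.5%) among 32 kept genes. Kif5c, a neuronal kinesin heavy chain, fell from 81.3 to 12.8. Among 26 kept Tex genes 8 fell (30.8%), of which Tex29 went from 93.3 to 42.0, and 1 rose (3.85%), Tex22, from 20.8 to 48.0. Clustered histone genes had 7 rises (17.5%), from 3 distinct peaks, and 1 fall (2.5%) among 40 kept genes. Of their 48 pachynema calls 8 were lost (16.7%, near the 15.6% of all genes), 1 of them from above the lowest 25 points. In those lowest 25 points, where 51.6% of calls were lost over all genes, lay 26 of the 48 calls. Spata genes had 4 falls (16%) and 4 rises (16%) among 25 kept genes. Solute carriers lost 44 of 221 calls (19.9%, against 15.6% of all genes). Of the 221 calls 71 were in the lowest 25 points of pachynema, and 9 of the lost calls came from above them. Of 177 kept solute carrier genes 28 fell (15.8%, against 16.4%) and 24 rose (13.6%, against 11.9%). Among the falls Slc52a2, a riboflavin transporter gene whose peak also serves Fbxl6, fell from 99.9 to 26.7.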
